A study of Homo sapiens with 8 samples.

Results

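The microRNAs numbered miR-1178 to miR-1305 were measured with 67 of the 754 TaqMan assays of a microRNA array, in 4 human lung adenocarcinoma cell lines with and without transforming growth factor β1 (TGF-β1). Members were taken by a rule on names, which was set with earlier results of these data known. Any assay from miR-1178 to miR-1305 by number, with any letter, arm or #, was taken, and miR-1185, miR-1197, miR-1260, miR-1274, miR-1283 and miR-1291 were left out. All 67 lay on the second of the 2 cards of the array (card B, 377 assays), so the other 310 assays of that card are the comparison with the most similar chemistry. The lines were A549, LC2/ad, PC3 and PC9; per the labels each gave 1 control sample and 1 sample treated with 5 ng/ml TGF-β1 for 72 h. Groups follow the treatment entry and title of each sample; the source names state the opposite, and if those were right every control and TGF-β1 value and direction given here would be exchanged. All 8 samples were total RNA extracted with TRIzol from cells grown in RPMI medium with fetal bovine serum, and the lines were not authenticated by the submitters. PC3 is a lung line by its labels and shares its name with a prostate line.

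microRNAs are short RNAs cut from hairpin transcripts by Drosha and Dicer, and they guide Argonaute proteins to messenger RNAs, mostly by pairing through bases 2 to 8 of the microRNA, the seed. Numbers in the registry were given in order of discovery, so members of this range were mostly found by deep sequencing after the abundant families had been named. Several are unusual in origin: mirtrons are short introns that become a microRNA hairpin by splicing instead of Drosha cutting, others derive from transposable elements or are encoded in several copies, and a few entries were later reassigned to small nucleolar RNAs. TGF-β1 drives epithelial cells towards a mesenchymal state and was the agent whose effect on microRNAs the study set out to profile.

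The assays were matched by name to RefSeq microRNAs (GRCh38.p14). Of the 67 members, 33 matched 1 mature entry exactly and 10, among them miR-1201, miR-1254 and miR-1300, had no entry in the table used. For 16 others RefSeq lists both arms and the card does not name the arm. The sequences below belong to the detected members that the results turn on, with the seed in capitals, 5′ to 3′. For miR-1290, miR-1275, miR-1267 and miR-1303 the name matches 1 mature sequence. Both arms are shown for miR-1180, miR-1271, miR-1233, miR-1227 and miR-1247, and 2 lettered entries for miR-1269. miR-1296 is shown with the single arm listed, 3p. The card does not name its arm either, so that assay may read the arm not shown.
miR-1290: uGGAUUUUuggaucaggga
miR-1275: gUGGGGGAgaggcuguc
miR-1267: cCUGUUGAaguguaaucccca
miR-1303: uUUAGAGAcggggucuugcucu
miR-1180-3p: uUUCCGGCucgcgugggugugu
miR-1180-5p: gGACCCACccggccgggaaua
miR-1271-5p: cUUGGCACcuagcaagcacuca
miR-1271-3p: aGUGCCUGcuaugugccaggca
miR-1233-3p: uGAGCCCUguccucccgcag
miR-1233-5p: aGUGGGAGgccagggcacggca
miR-1227-3p: cGUGCCACccuuuuccccag
miR-1227-5p: gUGGGGCCaggcggugg
miR-1247-5p: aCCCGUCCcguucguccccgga
miR-1247-3p: cCCCGGGAacgucgagacuggagc
miR-1269a: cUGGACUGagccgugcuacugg
miR-1269b: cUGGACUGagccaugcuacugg
miR-1296-3p: gAGUGGGGcuucgacccuaacc

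In GRCh38.p14, miR-1290 lies at chr1:18897078-18897096 on the minus strand, within the span of ALDH4A1, and miR-1275 at chr6:34000018-34000034 on the minus strand, outside any other gene of the table. miR-1180-3p lies at chr17:19344513-19344534 (minus, within B9D1), miR-1271-5p at chr5:176367960-176367981 (plus, within ARL10) and miR-1303 at chr5:154685827-154685848 (plus, within LARP1). miR-1267 lies at chr13:107531217-107531237 (minus, within NALF1), miR-1296-3p at chr10:63372969-63372990 (minus, within JMJD1C) and miR-1247-5p at chr14:101560362-101560383 (minus, within DIO3OS, a noncoding RNA of the imprinted 14q32 region). miR-1269a (chr4:66276890-66276911, plus) and miR-1269b (chr17:12917313-12917334, minus) share their seed. The card name has no letter, so it does not separate these entries. miR-1233-3p is encoded at 2 places on the minus strand, chr15:34382069-34382088 within GOLGA8A and chr15:34528290-34528309 within GOLGA8B. Of the detected members with an entry, 16 of 18 lay within the span of another gene, and so did 35 of 37 of those not detected; strand and exon or intron position were not considered. The mature sequences of detected and undetected members with 1 sequence had the same median length, 22 bases, and a median GC content of 47.6% (n = 11) and 46.5% (n = 26).

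Hairpin ends bear on mirtron origin, because an intron starts with GU and ends with AG. A list of known mirtrons has these ends by definition, so its count below does not test origin. Hairpins of RefSeq that start and end with these letters (capitals) numbered 36 of 1562 (2.30%) over the whole table, 9 of 53 among the numbers measured here and 8 of 8 among the mirtron list of miR-1224, miR-1225, miR-1226, miR-1227, miR-1233, miR-1236 and miR-1238. The ninth was that of miR-1228, named here for its ends; its passenger-strand assay, miR-1228#, is counted with the remaining members and stayed at 40 in all 8 samples. The hairpins of the pair of mirtrons that were measured most often are printed, that of miR-1233 from chr15:34382069-34382150 and that of miR-1227 from chr19:2234062-2234149, both on the minus strand.
MIR1233-1: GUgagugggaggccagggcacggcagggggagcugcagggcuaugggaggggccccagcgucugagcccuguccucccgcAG
MIR1227: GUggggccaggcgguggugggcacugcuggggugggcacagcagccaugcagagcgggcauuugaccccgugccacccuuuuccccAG

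The measured value is the threshold cycle (Ct), the PCR cycle at which an assay's signal crosses the detection threshold; 1 cycle less stands for about a doubling of template, and an assay that never crossed was listed at 40. A Ct of 35 or below was taken as detected. Assays differ in efficiency, so Ct values of different assays are not compared as levels. The mean Ct of the 51 card B assays detected in all 8 samples, which served as the normalizer, lay between 28.5 and 29.8. No culture was repeated within a line, so a difference in a single line has no replicate error. Among the markers of cell type, the epithelial miR-200c was detected in all 8 samples, 2 to 5 of the 5 epithelial markers were detected per sample, and 0 to 2 of the 5 blood markers. Of the latter, the red cell microRNAs miR-451 and miR-144 were at 40 in all 8, while miR-142-3p was detected in both samples of A549 and LC2/ad (Ct 32.5 to 34.5) and miR-223 in the A549 TGF-β1 sample (33.9) and in PC9 (33.1 and 33). Of the 4 fibroblast or smooth muscle markers, 0 to 3 were detected per sample, with 3 in the LC2/ad TGF-β1 sample. miR-199a-3p and miR-214 of that list read 25.1 to 25.7 in PC3, and elsewhere miR-214 was at 40 and miR-199a-3p at 34.5 or later. By contrast, miR-143 and miR-145 were not detected in PC3 (35.07 to 40). They were detected in the TGF-β1 samples of LC2/ad (31.9 and 31.3) and PC9 (34.6 and 32.3), and miR-143 also in the LC2/ad control (33.7). The part of these markers in the results was not tested.

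Most of the late-numbered microRNAs were not detected in these lines. At Ct 35 or below, 22 of the 67 members (32.8%) were detected in at least 1 sample, against 125 of the 310 other card B assays (40.3%) and 372 of all 754 (49.3%). Detection in all 8 samples was reached by 4 members, miR-1290, miR-1275, miR-1233 and miR-1180 (5.97%), against 47 of the other card B assays (15.2%). Of the 536 member wells, 90 were at 35 or below, 51 lay between 35 and 40, and 395 were at 40. The 45 members without detection comprised 34 that stayed at 40 in all 8 samples and 11 that amplified in at least 1 sample but never by cycle 35, with lowest Ct values between 35.6 and 39.02.

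In each sample the detected share of the members was below that of the other card B assays. The A549 control and TGF-β1 samples detected 9 (13.4%) and 14 (20.9%) members, while the share of the other card B assays was 25.2% and 24.5%. LC2/ad detected 12 (17.9%) and 8 (11.9%), against 29.4% and 25.2% of the others. PC3 detected 15 (22.4%) and 14 (20.9%), against 28.4% of the others in both. PC9 detected 8 (11.9%) and 10 (14.9%), against 23.2% and 22.9%. The widest steps between control and TGF-β1 were those of A549, where the other assays were nearly level, and LC2/ad, where the other assays were also lower after TGF-β1. These differences were not tested. In the A549 TGF-β1 sample miR-1248, miR-1256, miR-1282 and miR-1300 lay just inside the limit (34.48 to 34.77).

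**Figure D1:**
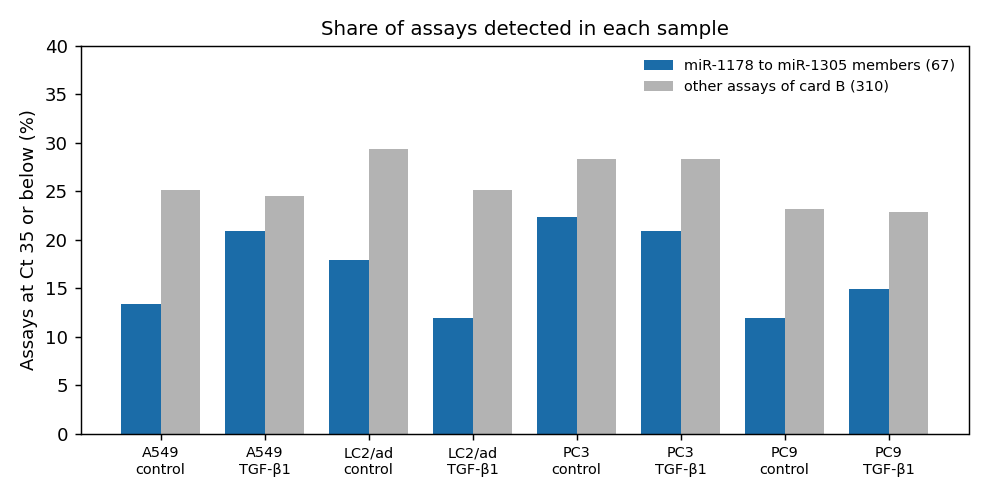
Share of assays at Ct 35 or below in each of the 8 samples, in percent, for the 67 members (blue) and the other 310 assays of card B (grey). The blue bar is lower than the grey bar in every sample, from 11.9% to 22.4% against 22.9% to 29.4%.

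By kind of microRNA, with lists too short for a comparison, detection was as follows. Of the 7 mirtron assays 3 were detected (miR-1233, miR-1227 and miR-1226#, the last a passenger strand), while miR-1224-3p, miR-1225-3p, miR-1236 and miR-1238 stayed at 40 in all 8 samples. Of the 11 assays listed as repeat-derived or multi-copy 7 were detected, miR-1233 again among them with miR-1244, miR-1254, miR-1255B, miR-1285, miR-1290 and miR-1303. That list, drawn from general knowledge, is not complete. miR-1184, which RefSeq places at several loci, and miR-1269, with 2 lettered entries, are counted with the remaining members. miR-1184 was at 40 in all 8 samples and miR-1269 was detected. Of the 3 entries tied to small nucleolar RNAs, miR-1201, listed by RefSeq as a synonym of SNORD126, and miR-1248 were detected, and miR-1259, a synonym of SNORD12, was at 40 throughout. miR-1247, the single 14q32 member, was detected, as were 10 of the remaining 46.

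By cell line, 8 of the 22 were detected in all 4 lines, 3 in 3 lines, 3 in 2 lines and 8 in 1 line. Matching counts for the other card B assays are not given here. Whether detection in 1 line, or in PC3 alone, is a trait of the members was not tested. PC3 alone detected miR-1271, miR-1303, miR-1255B and miR-1296. A549 alone detected miR-1248 and miR-1256, PC9 alone miR-1244 and miR-1270, and LC2/ad none that the others lacked. The limit matters here, since miR-1271 reached 35.02 and miR-1303 reached 35.4 in the PC9 control sample, just outside it.

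**Figure D2:**
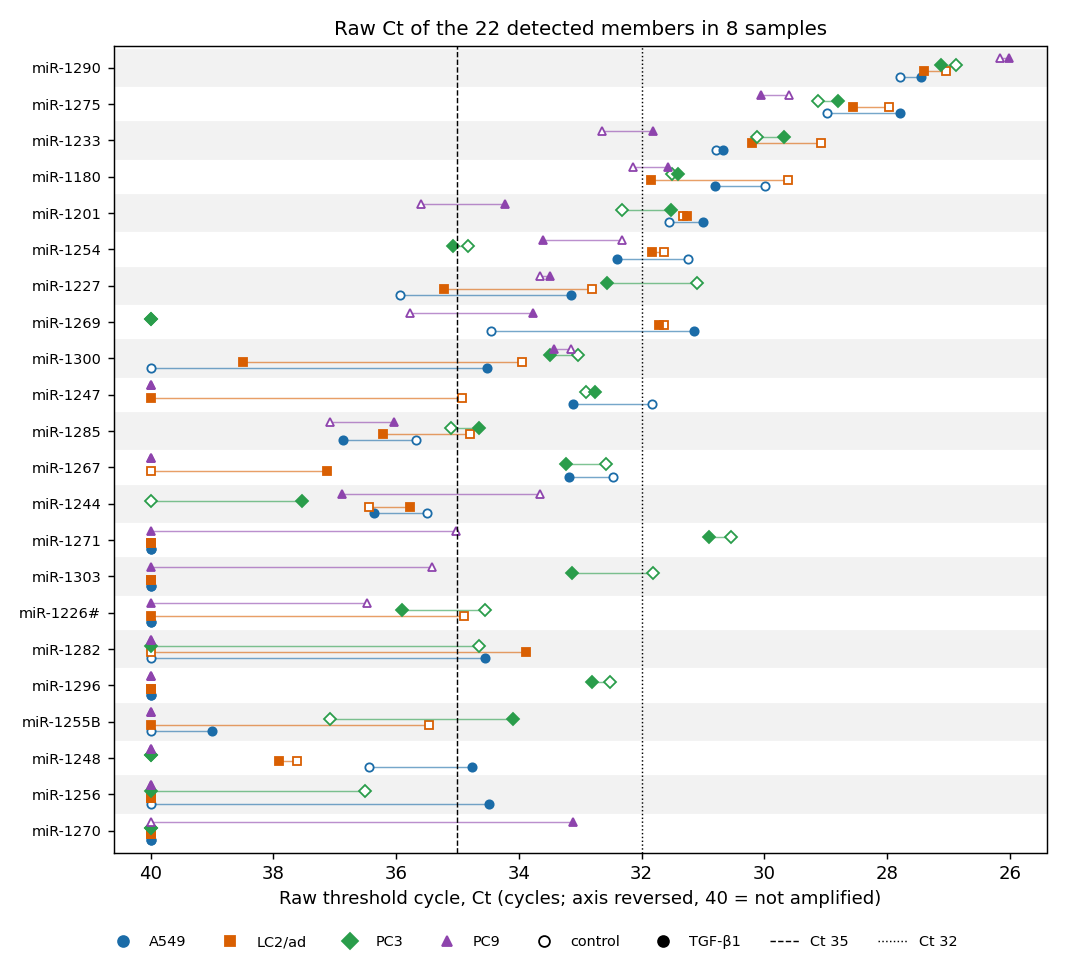
Raw Ct of the 22 detected members, in cycles on a reversed axis so that more template lies to the right, with 1 symbol per line (open control, filled TGF-β1) and the 2 samples of a line joined. miR-1290 and miR-1275 lie to the right of Ct 32 in all 8 samples, whereas 11 of the 22 members never reach it.

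The comparison between lines asked which members differed by cell line, with treatment kept in the model. Levels are log2 values relative to the card mean, and each line mean is given with the SD of its 2 samples, 1 control and 1 treated. By limma's F test, 13 of the 22 detected members passed an adjusted p of 0.05, a share read against a background of 64.5% (240 of 372 detected assays). When undetected values were set to 1 limit for the whole card in place of each sample's own, 7 of 17 members passed, against a background of 60.1% (191 of 318). These 7, miR-1271, miR-1290, miR-1201, miR-1254, miR-1296, miR-1300 and miR-1267, were among the 13. The share among members was thus 59.1% in the first setting and 41.2% in the second, below the background in both, and the difference from the background was not tested. With 1 limit for the card, a line with no detection has no spread between its samples at all. For members detected in 1 line alone, miR-1271 and miR-1296 among the 7, passing both settings is therefore no check of the call. In bulk RNA, fewer cells holding a microRNA and less of it per cell cannot be told apart.

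miR-1290, one of the repeat-derived list, was highest in PC9. Its raw Ct was 26.2 and 26.0 in the control and TGF-β1 samples of PC9, 27.8 and 27.5 in A549, 26.9 and 27.1 in PC3, and 27.0 and 27.4 in LC2/ad. Both PC9 samples were lower in Ct than all the others, LC2/ad and PC3 overlapped, and both A549 samples had the highest Ct. The normalized level was 3.54 ± 0.12 in PC9, 1.60 ± 0.09 in LC2/ad, 1.53 ± 0.13 in PC3 and 1.44 ± 0.06 in A549 (SD, n = 2 each), a range of 2.10 (limma F test, adjusted p = 0.0021). The last 3 lines were within 0.16 of one another, near their SDs. PC9 was highest with each of the 5 normalizers tried.

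miR-1271 was measured in PC3 and shares its 5p seed, UUGGCAC, with miR-96-5p of the miR-183 cluster. It was at 30.6 and 30.9 in the PC3 samples, at 35.02 and 40 in PC9, and at 40 in all samples of A549 and LC2/ad. The PC3 level was -2.20 ± 0.21, and the other line means, from -6.18 to -5.38, are limits of detection (limma F test, adjusted p = 0.00046). Those limits vary within a line only with the normalizer, so the p-value does not measure a spread of levels there. The assay of miR-96, on the other card, read 31.5 and 32.5 in PC3, 35.1 and 33.5 in LC2/ad, 34.8 and 40 in PC9, and 34.3 and 32.98 in A549, so its lowest Ct was also in PC3 but it amplified in every line.

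miR-1201, the SNORD126 entry, was lowest in PC9. It stood at 35.6 and 34.2 in PC9, 31.6 and 31.0 in A549, 32.3 and 31.5 in PC3, and 31.3 and 31.3 in LC2/ad. Both PC9 samples had the highest Ct, 1 of them past the limit. Levels were -4.99 ± 0.32 in PC9, -2.22 ± 0.10 in A549, -3.39 ± 0.60 in PC3, and -2.47 ± 0.21 in LC2/ad (limma F test, adjusted p = 0.0018). A549 and LC2/ad differed by about the spread within LC2/ad.

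miR-1254, a repeat-derived microRNA, was lowest in PC3. It read 32.3 and 33.6 in PC9, 31.2 and 32.4 in A549, 34.8 and 35.1 in PC3, and 31.6 and 31.8 in LC2/ad. The PC3 mean of -6.39 ± 0.08 is close to the limit of detection, and the means of A549 (-2.76 ± 1.12), LC2/ad (-2.91 ± 0.03) and PC9 (-3.34 ± 1.14) lay within the spread of A549 and PC9 (limma F test, adjusted p = 0.0055). With a Ct limit of 32 the adjusted p was 0.061.

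miR-1296 and miR-1303, like miR-1271, were detected in PC3 only. In that line the fibroblast markers miR-199a-3p and miR-214 were also at their lowest Ct (25.1 to 25.7). miR-143 and miR-145 of the same list were not detected there (35.07 to 40). Whether the members and the markers go together was not tested. miR-1296, of the JMJD1C locus, was at 32.5 and 32.8 in PC3 and at 40 in all other samples; its PC3 level of -4.13 ± 0.16 was above limits of -6.18 to -5.38 (limma F test, adjusted p = 0.0059). miR-1303 was at 31.8 and 33.1 in PC3, at 35.4 in the PC9 control and at 40 elsewhere. Its adjusted p of 0.014 became 0.076 with 1 limit per card and 0.068 without the PC3 control sample (limma F test). miR-1271, miR-1296 and miR-1303 entered the test through PC3 alone. For each, the SDs of A549, LC2/ad and PC9 were 0.30, 0.17 and 0.23. These come from values set at the limit and hold only shifts of the normalizer, so the p-values do not measure a spread of levels in those lines.

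miR-1300 was highest in PC9 and miR-1267 in A549. miR-1300 read 33.2 and 33.4 in PC9, 33.04 and 33.5 in PC3, 34.0 and 38.5 in LC2/ad, and 40 and 34.5 in A549. Relative to the card mean this gave -3.66 ± 0.42 in PC9 and -4.74 ± 0.28 in PC3 (limma F test, adjusted p = 0.0064), while A549 and LC2/ad, each with 1 undetected sample, had means of -5.70 and -5.65 that did not differ beyond their spread. With no reset at 35, and the values of 40 and 38.5 kept, the adjusted p was 0.39 (limma F test). miR-1267 was at 32.5 and 33.2 in A549 and 32.6 and 33.2 in PC3, was not detected in LC2/ad (40 and 37.1) and stayed at 40 in both PC9 samples. The A549 level of -3.76 ± 0.80 and the PC3 level of -4.38 ± 0.42 overlapped (limma F test over the 4 lines, adjusted p = 0.0094). The LC2/ad and PC9 means are limits, and their SDs of 0.17 and 0.23 hold only shifts of the normalizer. For miR-1267 the p-value thus does not measure a spread of levels in those lines.

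The other 6 calls between lines, which include miR-1303, did not pass with 1 limit per card or, for miR-1256, could not be tested there. miR-1247 had its lowest Ct in A549 (31.8 and 33.1), followed by PC3 (32.9 and 32.8) and LC2/ad (34.9 and 40), and was at 40 in both PC9 samples. Its adjusted p was 0.018 and became 0.070 with 1 limit; without the LC2/ad control, the PC9 control or the PC9 TGF-β1 sample it was 0.064, 0.053 and 0.053 (limma F test). miR-1269 was at 40 in both PC3 samples (adjusted p = 0.022, and 0.12 with 1 limit; limma F test) and also lost its call without the LC2/ad control, the PC3 TGF-β1 or either PC9 sample, with adjusted p from 0.059 to 0.11. miR-1233 (adjusted p = 0.046, and 0.053 with 1 limit; limma F test) read 32.6 and 31.8 in PC9, 30.8 and 30.7 in A549, 30.1 and 29.7 in PC3, and 29.1 and 30.2 in LC2/ad. PC9 had the lowest level, -2.60 ± 0.36, but in 7 of the 8 fits that left out 1 sample the adjusted p was above 0.05, up to 0.21 without the PC9 control; the exception was the fit without the LC2/ad TGF-β1 sample. miR-1270 and miR-1256, chosen here after their values were seen, were each detected in a single sample. For miR-1256 the highest line mean was that of PC9, where it was not detected, so its adjusted p of 0.043 compares limits.

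**Figure D3:**
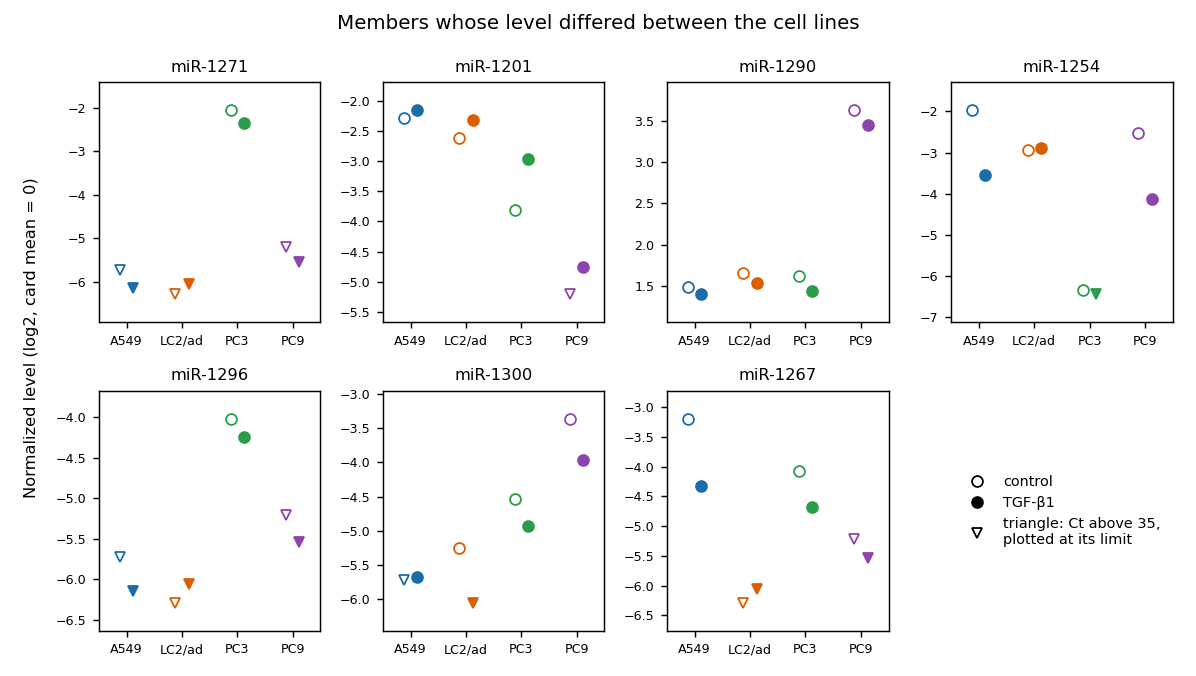
Normalized level (log2, card mean = 0) in each sample, by line, for the 7 members that passed under both ways of treating undetected values. Neither way holds a measured spread for a line with no detection. Circles are detected and triangles are limits; miR-1290 stands at 3.45 and above in PC9, and miR-1271 and miR-1296 are above their limits only in PC3.

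The members detected in all samples with no call between lines were miR-1275 and miR-1180. miR-1275, a G-rich microRNA on the 17-base sequence shown above, read 29.6 and 30.1 in PC9, 29.0 and 27.8 in A549, 29.1 and 28.8 in PC3, and 28.0 and 28.6 in LC2/ad (limma F test, adjusted p = 0.13). miR-1180 ranged from 29.6 in the LC2/ad control to 32.1 in the PC9 control (limma F test, adjusted p = 0.20). Both passed under at least 1 other normalizer: with the median of the detected microRNAs the adjusted p was 0.025 for miR-1275 and 0.045 for miR-1180, and with U6 it was 0.029 for miR-1275.

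The comparison of TGF-β1 with control asked whether members shifted over the 4 lines. None of the 11 members with a difference in at least 3 lines passed an adjusted p of 0.05, and the background was 0%, since none of the 250 assays tested passed (limma on within-line differences). At an unadjusted p under 0.05 there were 30 assays (12%), none of them a member. The smallest adjusted p was 0.42 among the members and 0.29 among all assays. The median of the mean log2 changes was -0.14 over the 11 members and -0.08 over the 250 assays, with 3 members above 0 and 8 below. The members' median was -0.24 without PC9 and -0.23 without PC3, and 0.0017 with all control RNAs as normalizer. The median standard error was 0.45 for members and 0.28 for all assays, and 7 of the 11 had a bound in at least 1 line, where 1 sample was above Ct 35 and the change is only known to be at least or at most the value given.

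The members with the highest mean changes were miR-1269, miR-1201 and miR-1282. miR-1269, described as raised in several tumours, had raw Ct values of 34.5 and 31.1 in the control and TGF-β1 samples of A549, 35.8 and 33.8 in PC9, and 31.6 and 31.7 in LC2/ad. It was 7.39-fold higher after TGF-β1 in A549 (log2 change 2.89), differed by 0.16 in LC2/ad and by at least 0.90 in PC9, and was at 40 in both PC3 samples. The mean was 1.32 ± 0.81 (SE, n = 3 lines, limma adjusted p = 0.42), and without A549 it was 0.53, so the lines disagreed in size although none fell below 0. miR-1201 was above 0 in 4 of 4 lines, with at least 0.45 in PC9, 0.14 in A549, 0.85 in PC3, and 0.30 in LC2/ad (mean 0.43 ± 0.15, SE, limma adjusted p = 0.42). With the median as normalizer the A549 value was 0.

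miR-1282 was detected in 1 sample of each of 3 lines. It read 34.6 after TGF-β1 in A549, 33.9 after TGF-β1 in LC2/ad and 34.7 in the PC3 control, and was at 40 in the partner samples and in PC9. The changes were therefore at least 0.03, at least 1.35 and at most -0.30 (mean 0.36 ± 0.50, SE, limma adjusted p = 0.70; -0.14 without LC2/ad). All 3 detected values were past Ct 33, where few template copies are left.

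The members with the lowest mean changes were miR-1254, miR-1180 and miR-1227. miR-1254 changed by -1.58 in A549 and -1.61 in PC9, by 0.05 in LC2/ad and by at most -0.12 in PC3 (mean -0.82 ± 0.45, SE, limma adjusted p = 0.42; -0.55 without PC9). The LC2/ad value turned to -0.06 with all control RNAs as normalizer. miR-1180 was 2.37-fold lower in A549 (log2 change -1.24) and 4.01-fold lower in LC2/ad, where the raw Ct went from 29.98 to 30.8 and from 29.6 to 31.9. In PC3 (31.5 and 31.4) and PC9 (32.1 and 31.6) its change was 0.14 and 0.24, so that the mean was -0.72 ± 0.55 (SE, limma adjusted p = 0.55; -0.29 without LC2/ad). The PC3 value was -0.24 with the median normalizer.

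miR-1227, a mirtron of PLEKHJ1, had changes of opposite sign in the lines. It read 33.7 and 33.5 in PC9, 35.9 and 33.2 in A549, 31.1 and 32.6 in PC3, and 32.8 and 35.2 in LC2/ad. That made a change of -0.17 in PC9, at least 1.43 in A549, -1.42 in PC3, and at most -1.96 in LC2/ad, the PC9 value turning to 0.37 with U6 (mean -0.53 ± 0.75, SE, limma adjusted p = 0.70). The mean was -0.05 without LC2/ad, -0.23 without PC3 and -1.18 without A549. The other mirtron tested, miR-1233, changed by 0.50 in PC9, -0.31 in A549, 0.49 in PC3, and -0.89 in LC2/ad (mean -0.05 ± 0.34, SE, limma adjusted p = 0.95). Neither mirtron had 1 direction over the lines.

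Among the remaining tested members, miR-1290 had the smallest spread. Its changes were -0.18 in PC9, -0.08 in A549, -0.19 in PC3, and -0.12 in LC2/ad (mean -0.14 ± 0.02, SE, limma adjusted p = 0.71), and the PC9 value became 0.36 with U6 and the LC2/ad value 0.04 with the median normalizer. miR-1275 changed by -0.78 in PC9, 0.76 in A549, 0.37 in PC3, and -0.35 in LC2/ad, a mean near 0 with an SE of 0.35. miR-1300 had -0.60 in PC9, at least 0.06 in A549, -0.40 in PC3, and at most -0.81 in LC2/ad (mean -0.44 ± 0.19, SE, limma adjusted p = 0.42). miR-1247 changed by -1.70 in A549 and 0.19 in PC3, and in LC2/ad only the control sample was detected, near the limit, which bounds the change at 0.16 or less (limma adjusted p = 0.70). With the median normalizer the sign also turned for miR-1275 in PC3 (-0.01), miR-1247 in PC3 (-0.19), and the A549 bounds of miR-1300 (-0.08) and miR-1282 (-0.11). miR-1290, miR-1275, miR-1233 and miR-1180 were the tested members detected in all 8 samples, so their changes hold no bound.

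**Figure D4:**
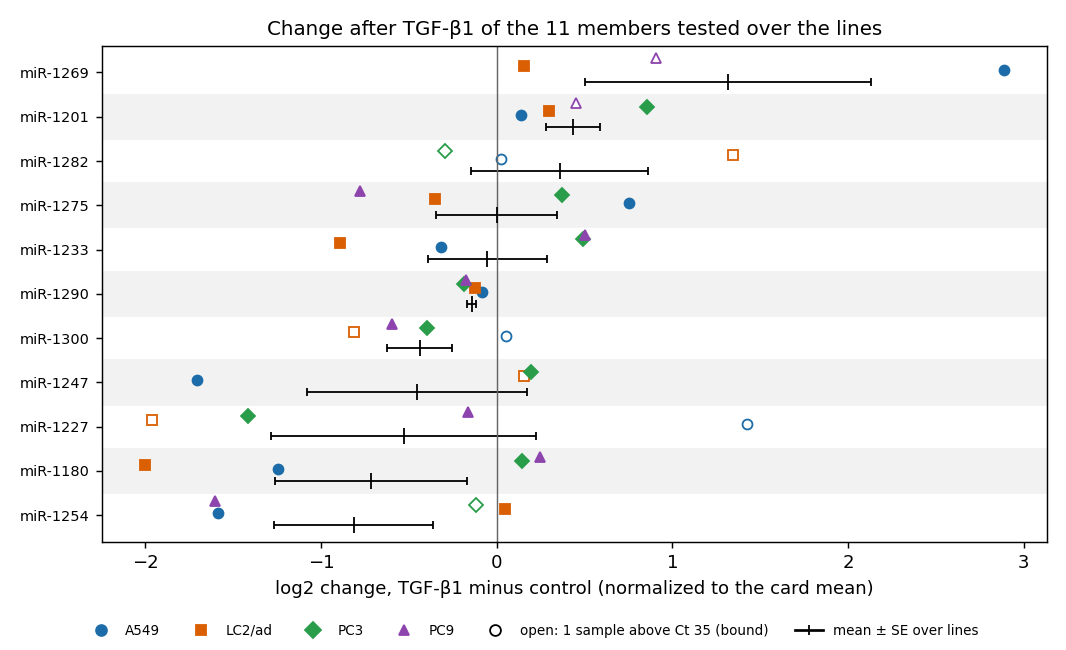
Log2 change after TGF-β1 in each line for the 11 members tested, in order of their mean, with open symbols for bounds and black bars for the mean ± SE over lines. miR-1269, miR-1201 and miR-1290 keep 1 sign in all lines with a value under this normalizer (for miR-1290 the PC9 value turns to 0.36 with U6), and the bar of miR-1290 (SE 0.02) is the shortest.

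Members with values in fewer than 3 lines were not tested. In PC3, miR-1271 changed by -0.30, miR-1296 by -0.23 and miR-1303 by -1.28; miR-1267 changed by -1.13 in A549 and -0.60 in PC3. Members detected in only 1 sample of a line numbered 5 in A549, all in the TGF-β1 sample, where 2.58% of the other card B assays were seen in that sample only and 3.23% in the control only. LC2/ad had 5 in the control sample only, against a background of 6.77%, and 1 in the TGF-β1 sample only, against 2.58%. PC3 had 3 and 2, against 2.58% each, and PC9 1 and 3, against 3.55% and 3.23%. The A549 set was miR-1227, miR-1248, miR-1256, miR-1282 and miR-1300. miR-1227 read 33.2 there. miR-1248, miR-1256, miR-1282 and miR-1300 lay just inside the limit (34.48 to 34.77), with changes of at least -0.19, 0.10, 0.03 and 0.06. The normalizer mean was also lower in that sample, 28.8 against 29.3 in the control. The 5 of the LC2/ad control were miR-1226#, miR-1227, miR-1247, miR-1285 and miR-1300, of which miR-1226#, miR-1247 and miR-1285 were at 34.79 to 34.92. miR-1227 and miR-1300 thus appeared in opposite samples of A549 and LC2/ad. miR-1244, whose hairpin RefSeq lists at 4 places in the genome, was at 33.7 in the PC9 control and 36.9 after TGF-β1, a change of at most -1.68. miR-1270 was at 33.1 in the PC9 TGF-β1 sample and at 40 in all others, a change of at least 1.56; it shares its seed with miR-620, which was at 40 in all 8 samples.

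Within lines, the count took members whose Ct was 32 or below with and without TGF-β1, and few differed 2-fold. In A549, 1 of 5 members was at least 2-fold lower, against a background of 2.48% of assays, and in LC2/ad it was 1 of 7 against 6.59%; both were miR-1180. None of 5 in PC3 and none of 2 in PC9 was lower, against backgrounds of 0% and 2.96%, and no member was 2-fold higher in any line (background 4.97% in A549, 12% in LC2/ad, 0.562% in PC3, 3.7% in PC9). Changes spread more at high Ct: the SD of card B changes in A549 was 0.51 for assays at Ct 30 or below and 1.10 for those between 32 and 35. The same values were 0.55 and 0.98 in PC9, 0.31 and 0.92 in PC3, and 0.63 and 1.47 in LC2/ad.

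The fold values in the authors' deposited table treat a Ct of 40 as a measured value, as recomputing them from the raw Ct showed. In the authors' deposited table, 15 members were past 2-fold in either direction in A549, 11 in PC9, 15 in PC3 and 11 in LC2/ad. Of these, 10, 9, 13 and 10 had at least 1 sample above Ct 35, and 5, 5, 9 and 7 had a sample at 40. The same counts are not given here for the other assays, so these show no trait particular to the members. The largest such fold was that of miR-1270 in PC9, at 137 in the authors' deposited table, where the bound from the limit of 35 is a log2 change of at least 1.56. The authors' deposited table gives miR-1282 at 82.9 in LC2/ad, 33.2 in A549 and 0.023 in PC3, and each of the 3 rests on 1 detected sample and a partner at 40. Members at 40 in both samples of a line numbered 44 in A549, 51 in PC9, 40 in PC3 and 48 in LC2/ad. In the authors' deposited table they all carry 1 fold per line, 0.759, 1.15, 0.944 and 1.20 in that order, which is the ratio of the U6 control RNA alone. For miR-1180, with both samples detected throughout, the authors' deposited table gives 1.71 in PC9, 0.430 in A549, 1.01 in PC3, and 0.254 in LC2/ad, the same direction in each line as the values above.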

How the data were processed

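The authors deposited raw Ct values, a score with no normalization in which higher means less template. They also deposited a linear ratio, calibrated per the file headers to the A549 control, and for each line a fold, TGF-β1 over control. Recomputing that ratio as Ct minus the card's U6 mean matched it with a largest log2 difference of 4.07e-06. Treatment groups follow the treatment characteristic and title; the source names of the 8 samples contradict both, were set aside, and would turn every TGF-β1 direction. In the sources used here, instrument software and thresholds are not given.

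From raw Ct, values above 35 were set to 35, and each sample and card was centred on the mean Ct of assays detected in every sample (51 on card B, 4 of them members). Using limma 3.58.1 (R 4.3.3), TGF-β1 was tested on within-line differences (at least 3 lines) and lines with an F test with treatment as covariate, the former two-sided and both with Benjamini-Hochberg adjustment over all assays. The cell line in the labels pairs the samples; over 168 assays, the 2 samples of a line correlated in their deviations from group means at r = 0.92 (A549, PC9), 0.81 (LC2/ad) and 0.94 (PC3). On simulated data a log2 change of 1 was recovered for 92% of changed assays by the test over lines (250 assays) and for 38% by the F test (372 assays), and one of 2 for 100% by both. The simulation gave every assay the same normal noise, set from the median over all assays, and held no values at a limit. The members' median standard error was 0.45, against 0.28 for all assays, so these rates do not carry over to the members.

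The members and lists were chosen with earlier results of these data known. Named members were those at Ct 35 or below in all samples, at 32 or below in any, among the 10 smallest p past either test, with the 3 highest or lowest mean changes, at 33 or below in 1 sample of a line and undetected in the other, and up to 4 examples per list. Alternatives changed the normalizer, the Ct limit, the bounds, the filter on lines, the block and the samples; a normalizer without the members was added after seeing the data. p-values measure the spread between these samples, which for values set at the limit is only that of the normalizer.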

Additional observations from a re-analysis of the deposited data

Results flagged for a closer look

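miR-1290 in PC9 stood apart from the other lines in both groups. Among the 4 control samples the gap between PC9 and its neighbour was 0.916 of the whole range, and among the 4 TGF-β1 samples 0.931, above Dixon's critical value for groups of 4. Chance alone marks about 1 group in 20, and 10 groups were checked.

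miR-1227 had changes of opposite sign in A549 and in 2 other lines. The log2 change of at least 1.43 in A549 and the one of at most -1.96 in LC2/ad are at least 3.39 apart, and that of A549 and the -1.42 of PC3 at least 2.84. The difference was not tested, because each line has 1 sample per group.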

How the results depend on the processing

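No member passed the test over lines under any alternative run. Without the replicate block 0 members passed, as with it. The median change of the members, -0.14, was -0.03 with U6, 0.0017 with all control RNAs, -0.29 for a difference in all 4 lines, and between -0.24 and -0.14 when 1 line was left out. Mean changes turned sign with U6 for miR-1233 (0.06) and miR-1275 (0.11), and with all control RNAs for miR-1233 (0.092), miR-1275 (0.14) and miR-1290 (0.0017). Leaving out 1 line gave ranges of -0.24 to 0.23 for miR-1233 (0.035 without A549), -0.14 to 0.69 for miR-1282, -0.25 to 0.26 for miR-1275 (0.12 without LC2/ad), -0.77 to 0.17 for miR-1247, 0.53 to 1.89 for miR-1269, -1.18 to -0.05 for miR-1227 and -1.03 to -0.29 for miR-1180. These control RNAs shifted every card B change in PC9 by 0.53 (U6) and 0.59 (all), and U6 moved the median of all 250 assays from -0.08 to 0.13. The 13 of 22 members that differed between lines became 7 of 11 tested with a Ct limit of 32. With 1 limit per card they became 7 of 17, and in both cases all were among the 13. Over all assays, 240 of 372 became 201 of 248 and 191 of 318 in these settings. miR-1271, miR-1201 and miR-1290 were called in 15 of 15 alternatives. For miR-1271, detected in PC3 alone, the values of the other lines were mostly set at a limit. Its count of calls therefore does not measure how stable a difference in levels is. Detected members fell from 22 to 11 with a limit of 32, and detected assays among the others of card B from 125 to 75. When Ct up to 35 was counted, members changed 2-fold numbered 5 of 9 in A549 (1 higher, 4 lower), 2 of 12 in PC3 and 1 of 7 in PC9 (all lower), against 15.7%, 8% and 15.7% of all assays. In LC2/ad it was 1 of 7, also lower, against 26.4% of all assays. Among the other card B assays the shares were 16.2% in A549, 11.2% in PC3, 23% in PC9 and 27.1% in LC2/ad. With all control RNAs and the limit of 32, 2 of 7 in LC2/ad were lower. The cause of these differences was not tested, beyond the fewer assays counted at a limit of 32. Most members lie above Ct 32, where the spread of changes is widest, which limits what a single line can show there.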
